A study of Homo sapiens with 6 samples.

Results

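Aldo-keto reductases are mostly cytosolic enzymes that reduce aldehydes and ketones to alcohols with NADPH as the electron donor. The members described here are AKR1B1, AKR1B10, AKR1B15, AKR1C1, AKR1C2, AKR1C3, AKR1A1, AKR7A2 and AKR7A3. They were taken as a list of gene symbols, and all 9 were found among the 21676 symbols of the count table. All 9 also passed the filter on low counts and stand among the 14629 genes tested.

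As background, AKR1B1 is aldose reductase, which turns glucose into sorbitol in the first step of the polyol pathway. AKR1B10 reduces retinaldehyde and aliphatic aldehydes and is known for its raised level in several carcinomas, and AKR1B15 is its closest relative. The AKR1C enzymes act as hydroxysteroid dehydrogenases: AKR1C1 inactivates progesterone, AKR1C2 inactivates dihydrotestosterone, and AKR1C3 makes testosterone and prostaglandin F. AKR1A1 is the general aldehyde reductase, and the AKR7A enzymes reduce the dialdehyde of aflatoxin, with AKR7A2 also acting on succinic semialdehyde. AKR1B10 and the AKR1C genes are widely used as readouts of NRF2, the transcription factor of the oxidative stress response.

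RNA sequencing was done on the 83 cell line, given by the submitters as a SACC cell (usually salivary adenoid cystic carcinoma). The cells of interest overexpress ApoD, a secreted lipocalin that carries small lipids, and were set against cells labelled control, with 3 libraries a group. The labels state neither how ApoD was introduced nor what the controls received. They name no separate cultures either, so all p-values cover the spread among these libraries alone, and that spread may be technical.

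Totals ran from 37542568 to 40416964 counts in the ApoD overexpression libraries and from 38845545 to 39583565 counts in the control libraries. The ApoD overexpression libraries had 17378 to 17789 genes with at least 1 count, and the control libraries 18591 to 18685. APOD had 628, 528 and 625 counts with ApoD overexpression and 9, 8 and 2 counts in controls, which fits the labels (log2 fold change 6.63 ± 0.29 SE, edgeR adjusted p = 6.31e-08, n = 3 each). Of 9 epithelial markers 5 were lower and 1 higher with ApoD overexpression, and their summed level was 3618 to 4110 counts per 1000000 (CPM) with ApoD overexpression and 3154 to 4179 CPM in controls. Most of that sum was KRT8, KRT18, KRT5 and KRT7, so it does not show the lower markers. These were KRT19, KRT14, CDH1, TP63 and EPCAM, with log2 fold changes of −2.46, −1.75, −1.29, −1.05 and −0.30. The higher marker was KRT7 (0.48). Of 5 markers of adenoid cystic carcinoma, MYB, MYBL1 and NFIB were measured and none passed the test. KIT and SOX10 were not among the symbols of the count table, so they could not be tested.

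Markers of other cell types moved with the groups at low levels. The sum of 6 fibroblast markers was 9.85 to 13.8 CPM with ApoD overexpression and 26.9 to 32.6 CPM in controls, most of it COL1A1, while COL1A2, DCN and LUM had at most 1 count in any library. Both fibroblast markers that could be tested, COL1A1 and COL3A1, were lower with ApoD overexpression. All 3 tested endothelial markers, of 4 listed, were lower as well. Their sum was 1.35 to 2.30 CPM with ApoD overexpression and 8.01 to 13.3 CPM in controls. CDH5, listed here as an endothelial marker, had 1, 0 and 0 counts with ApoD overexpression and 86, 51 and 20 counts in controls. Of 5 leukocyte markers 4 were measured, of which 0 passed the filter, and they summed to at most 0.157 CPM with ApoD overexpression and 0.421 CPM in controls. Their part in the results below was not tested.

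Several members are near copies of each other, and counts per gene can then hold reads of a relative. Over their coding sequences (GENCODE 29), AKR1C1 and AKR1C2 differed at 19 of 969 bases, an identity of 98.0%. AKR1C1 and AKR1C3 differed at 83 of 969 bases (91.4% identity). With gaps counted as different, AKR1B10 and AKR1B15 were the same at 85.9% of aligned columns, and AKR7A2 and AKR7A3 at 85.0%. The coding sequences differ in length within each of these latter pairs, so their values understate the likeness over shared bases. They are not to be ranked against the values of the AKR1C genes, which are equally long and aligned without gaps. A stretch of coding bases 103 to 162 in exon 2 is printed to show how reads of the AKR1C genes can be told apart, since 10 of the 19 differences between AKR1C1 and AKR1C2 lie within it. Capitals in AKR1C1 and AKR1C2 mark the bases at which these 2 differ, and capitals in AKR1C3 mark those at which it differs from AKR1C1. The stretches lie on chromosome 10 of GRCh38 at chr10:4965932-4965991 (plus strand) in AKR1C1, chr10:5001604-5001663 (minus strand) in AKR1C2 and chr10:5096428-5096487 (plus strand) in AKR1C3.
AKR1C1: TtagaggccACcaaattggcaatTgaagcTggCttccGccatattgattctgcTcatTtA
AKR1C2: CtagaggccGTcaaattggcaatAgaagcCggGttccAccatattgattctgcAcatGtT
AKR1C3: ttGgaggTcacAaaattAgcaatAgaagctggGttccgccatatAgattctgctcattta
Outside such places the AKR1C1 and AKR1C2 sequences run together for long distances. Of all 100-base stretches of the annotated AKR1C2 transcripts, 27.6% also occurred in another gene, and for AKR1C1 16.3% did. The share was 12.2% for AKR7A3, all of it with AKR7L, and 3.85% for AKR1C3, 2.01% for AKR1B10 and 1.12% for AKR1B15. It was 0.344% for AKR7A2 and 0 for AKR1B1 and AKR1A1. How the authors' counting treated reads that match more than 1 gene is not given in the sources used here, so single values of AKR1C1, AKR1C2, AKR1B15 and AKR7A3 are uncertain in this respect, and a sum over the AKR1C genes and one over AKR1B10 and AKR1B15 are given beside them. No such sum was made for AKR7A3.

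**Figure D1:**
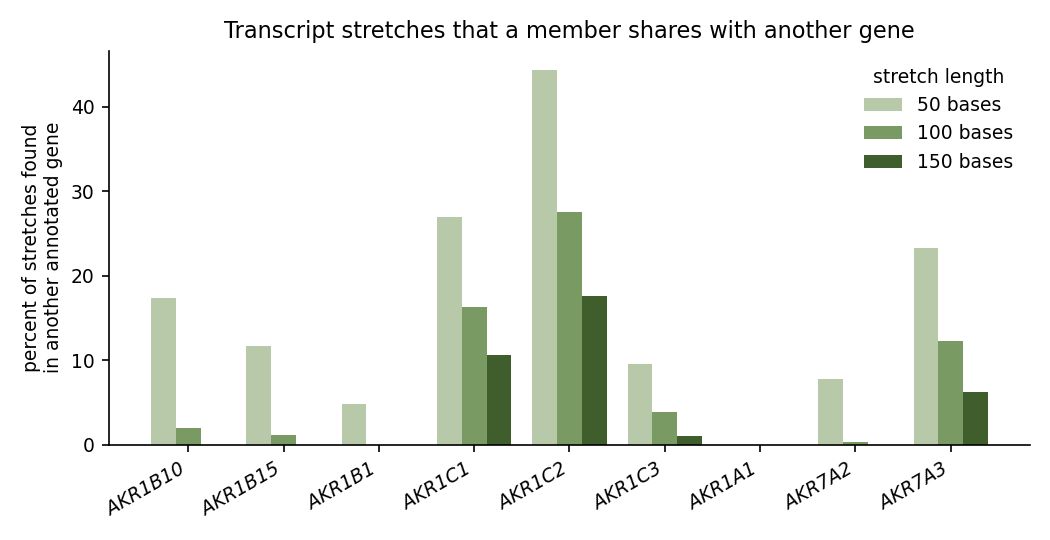
Percent of stretches of 50, 100 or 150 bases of each member's annotated transcripts (GENCODE 29) that also occur in another annotated gene. AKR1C2 has the highest bars at each length (44.4%, 27.6% and 17.6%), and AKR1A1 has none.

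AKR1B10 and the 3 AKR1C genes were several-fold lower with ApoD overexpression, while AKR1B1 and AKR1A1 were modestly lower and AKR7A2 and AKR7A3 did not pass the test. Of the 9 members, 7 were called lower with ApoD overexpression (edgeR adjusted p below 0.05), where 24.6% of all tested genes were, and 0 were called higher, where 24.2% of all tested genes were. At an unadjusted p below 0.05, edgeR and the DESeq2 Wald test also had 0 members higher. That adds nothing, since every member's log2 fold change was below 0 in both and no threshold could have called one higher. The near-even background holds with TMM scaling: over all tested genes 3601 were lower and 3539 higher, against 4435 lower and 2580 higher with scaling by library totals, where 7 members were again called lower and 0 higher. The 5 members lower by more than 2-fold were AKR1B10, AKR1B15, AKR1C1, AKR1C2 and AKR1C3, and 11.5% of all tested genes passed that mark. The same 7 called members had every ApoD overexpression library below every control library, as 29.7% of all tested genes had. The median log2 fold change was −2.25 over the 9 members and −0.02 over all tested genes. In such bulk libraries, fewer cells that express a gene and less RNA per cell cannot be told apart.

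In the AKR1B subfamily, AKR1B10, the reductase of retinaldehyde and aliphatic aldehydes, was far lower with ApoD overexpression. It had 169, 103 and 131 counts with ApoD overexpression, against 2282, 3328 and 3166 counts in controls. Scaled for library size, this was 4.29, 2.90 and 3.42 CPM with ApoD overexpression and 56.6, 81.3 and 76.5 CPM in controls. The highest ApoD overexpression library lay far below the lowest control library. The mean was 3.54 ± 0.703 CPM with ApoD overexpression and 71.4 ± 13.1 CPM in controls (SD, n = 3 each), 20.1-fold lower with ApoD overexpression. The log2 fold change of AKR1B10 was −4.33 ± 0.18 (SE, edgeR adjusted p = 4.11e-08), which ranked 68 from the lowest among the 14629 tested genes.

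AKR1B15 was counted rarely in either group, with 0, 3 and 1 counts with ApoD overexpression and 17, 18 and 34 counts in controls. All 3 ApoD overexpression libraries were below the controls. Its log2 fold change was −3.86 ± 0.83 (SE, edgeR adjusted p = 0.00229, n = 3 each). From 4 counts with ApoD overexpression and 69 counts in controls, scaled by library totals, the control level was 17.3 times that with ApoD overexpression. The 95% counting interval was 6.44 to 65.1. The edgeR fit with TMM scaling gave 14.6-fold. The fold change was −3.27 without ApoD overexpression replicate 1 and −5.15 without ApoD overexpression replicate 2, so its size rests on single reads. With AKR1B10 and AKR1B15 summed in each library, the level was 3.57 ± 0.663 CPM with ApoD overexpression and 71.996 ± 13.2 CPM in controls (SD, n = 3 each), and the log2 fold change was −4.33 ± 0.18 (SE, edgeR adjusted p = 3.35e-08).

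AKR1B1, the aldose reductase, had the highest level per length in every library and differed little. It had 8492, 9031 and 8862 counts with ApoD overexpression and 12465, 11267 and 11698 counts in controls, or 216, 254 and 231 CPM against 309, 275 and 283 CPM. The highest ApoD overexpression library and the lowest control library lay close together without overlapping. The log2 fold change was −0.31 ± 0.09 (SE, edgeR adjusted p = 0.0175, n = 3 each). This call did not hold in 4 of the 6 fits that left out 1 library: the adjusted p of edgeR was 0.0661 without control replicate 1, 0.0564 without control replicate 3, 0.122 without ApoD overexpression replicate 1 and 0.101 without ApoD overexpression replicate 3. Its log2 fold change lay between −0.22 and −0.30 in those 4 fits.

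**Figure D2:**
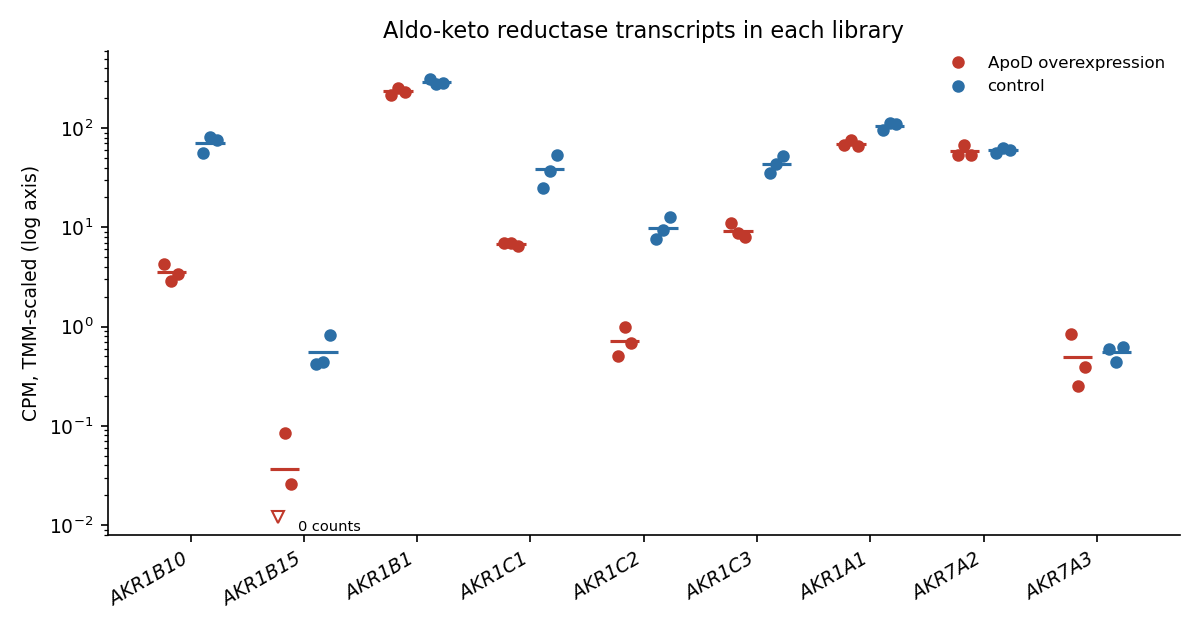
Level of each member in every library, in CPM scaled by TMM on a log axis, with ApoD overexpression libraries (red) left of control libraries (blue) and lines at the group means. The groups stand apart for AKR1B10 and the 3 AKR1C genes, lie close for AKR1B1, AKR1A1 and AKR7A2, and the open triangle marks the ApoD overexpression library with 0 AKR1B15 counts.

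In the AKR1C subfamily all 3 measured genes were lower with ApoD overexpression. AKR1C1, which inactivates progesterone, had 272, 246 and 250 counts with ApoD overexpression and 1011, 1522 and 2204 counts in controls. These are 6.91, 6.93 and 6.52 CPM with ApoD overexpression and 25.1, 37.2 and 53.2 CPM in controls. The ApoD overexpression libraries were nearly equal (coefficient of variation 3.34%), and the controls spread widely (36.7%), the highest being 2.12 times the lowest. The log2 fold change was −2.50 ± 0.22 (SE, edgeR adjusted p = 6.90e-06, n = 3 each).

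AKR1C2, which inactivates dihydrotestosterone, had 20, 35 and 26 counts with ApoD overexpression and 306, 382 and 522 counts in controls. Its mean was 0.724 ± 0.242 CPM with ApoD overexpression and 9.84 ± 2.55 CPM in controls (SD, n = 3 each), 13.6-fold lower with ApoD overexpression. The groups lay far apart, and the log2 fold change was −3.77 ± 0.28 (SE, edgeR adjusted p = 2.20e-06). AKR1C3, which makes testosterone and prostaglandin F, had 432, 308 and 307 counts with ApoD overexpression and 1435, 1761 and 2187 counts in controls. Its mean was 9.22 ± 1.55 CPM with ApoD overexpression and 43.8 ± 8.65 CPM in controls (SD, n = 3 each), 4.75-fold lower with ApoD overexpression. Every control library was above every ApoD overexpression library, and the log2 fold change was −2.25 ± 0.16 (SE, edgeR adjusted p = 1.81e-06).

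A sum over AKR1C1, AKR1C2 and AKR1C3 does not depend on how reads were divided between them, if each read was counted for exactly 1 gene. Whether this held is not known, and reads that were dropped or counted more often would change the sum too. The sum came to 18.4, 16.6 and 15.2 CPM with ApoD overexpression and 68.2, 89.5 and 119 CPM in controls. The sum was thus 5.51-fold lower with ApoD overexpression, with a log2 fold change of −2.46 ± 0.18 (SE, edgeR adjusted p = 1.55e-06, n = 3 each). Control replicate 1 was the lowest control library for 7 of the 9 members, the 3 AKR1C genes and AKR1B10 among them. Without it the log2 fold change of the AKR1C sum was −2.63, and without control replicate 3, the highest for all 3 AKR1C genes, it was −2.22. These are the ends of its range over the fits that left out 1 library.

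AKR1A1, the general aldehyde reductase, was abundant in both groups. It had 2658, 2675 and 2513 counts with ApoD overexpression and 3894, 4553 and 4559 counts in controls, or 67.5, 75.3 and 65.6 CPM against 96.5, 111 and 110 CPM. The libraries of the groups did not overlap, and the log2 fold change was −0.61 ± 0.10 (SE, edgeR adjusted p = 0.000333, n = 3 each). Tested against a change of 1.5-fold with the glmTreat function of edgeR, neither AKR1A1 (adjusted p = 0.617) nor AKR1B1 (adjusted p = 1.0) passed, while the other 5 called members did.

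The AKR7A genes showed no difference beyond the spread between libraries. AKR7A2 had 2125, 2413 and 2061 counts with ApoD overexpression and 2254, 2569 and 2497 counts in controls. The groups overlapped, with a log2 fold change of −0.03 ± 0.11 (SE, edgeR adjusted p = 0.862, n = 3 each). AKR7A3 had 33, 9 and 15 counts with ApoD overexpression and 24, 18 and 26 counts in controls, and the ApoD overexpression libraries lay on both sides of the controls. Its log2 fold change of −0.16 ± 0.53 (SE, edgeR adjusted p = 0.828, n = 3 each) had no stable sign, being 0.48 with each library's abundance trend removed and 0.14 without ApoD overexpression replicate 2. At these counts the SE leaves room for changes of the size seen in AKR1B1 and AKR1A1.

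**Figure D3:**
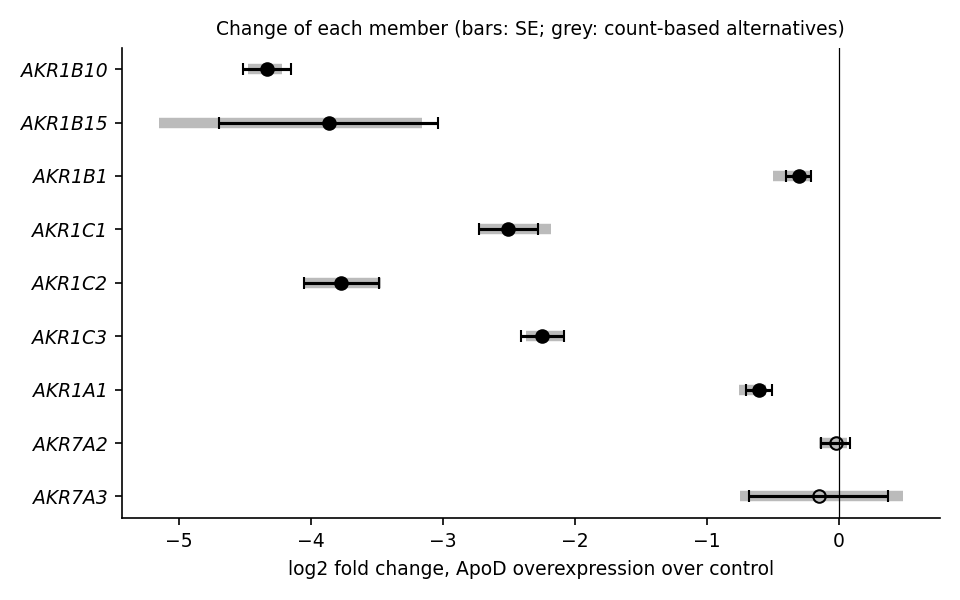
Log2 fold change of each member, ApoD overexpression over control, with its SE as black bars and the range over the alternative fits on counts in grey. Filled points passed the test: the 3 AKR1C genes, AKR1B10 and AKR1B15 lie at −2.25 or lower, AKR1A1 and AKR1B1 lie near 0, and the open points of AKR7A2 and AKR7A3 have ranges that cross 0.

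The order of the members by level per length also differed between the groups. The deposited FPKM (counts per kilobase of gene length and per 1000000 counts of the library) allow levels to be compared between genes. With ApoD overexpression the order was AKR1B1 (102 ± 6.96 FPKM), AKR1A1 (42.1 ± 2.68), AKR7A2 (21.4 ± 2.69), AKR1C3 (4.598 ± 0.833), AKR1B10 (1.29 ± 0.275), AKR1C1 (0.996 ± 0.0363), AKR7A3 (0.213 ± 0.135), AKR1C2 (0.168 ± 0.0538) and AKR1B15 (0.0103 ± 0.01205; SD, n = 3). In this order the libraries of neighbours overlapped only between AKR7A3 and AKR1C2.

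In controls the order by FPKM was AKR1B1 (136 ± 7.14), AKR1A1 (69.8 ± 6.41), AKR1B10 (28.2 ± 5.47), AKR1C3 (23.7 ± 5.20), AKR7A2 (23.7 ± 1.64), AKR1C1 (6.16 ± 2.39), AKR1C2 (2.49 ± 0.701), AKR7A3 (0.258 ± 0.0494) and AKR1B15 (0.173 ± 0.0736; SD, n = 3). Here AKR1B10, AKR1C3 and AKR7A2 could not be ordered beyond their spread, and the libraries of AKR7A3 and AKR1B15 overlapped as well. By mean, AKR1B10 stood in position 5 with ApoD overexpression and in position 3 in controls. The lengths behind these values, computed from the deposited counts and FPKM, were 6543 bases for AKR1C1, 4123 for AKR1C2 and 1927 for AKR1C3, so the levels of these 3 relative to each other depend on the gene models used.

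Of the summed FPKM of the 9 members, AKR1B10 and the 3 AKR1C genes together made up 5.0%, 3.52% and 3.81% with ApoD overexpression, against 16.97%, 21.8% and 23.4% in controls. The share of AKR1B1 was 58.9% ± 1.42 with ApoD overexpression and 47.0% ± 4.49 in controls, and that of AKR7A2 was 12.4% ± 0.747 with ApoD overexpression and 8.15% ± 0.337 in controls (SD, n = 3 each). The share of AKR1A1 was 24.4% ± 0.628 with ApoD overexpression and 24.0% ± 1.17 in controls (SD, n = 3 each). The sum itself was 166, 185 and 167 FPKM with ApoD overexpression and 275, 290 and 308 FPKM in controls, lower in every ApoD overexpression library than in any control library.

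Ratios of relatives within a library do not depend on library scaling and compare the changes of 2 members. They do depend on how reads that match both members were counted, above all for AKR1C1 and AKR1C2. The part of read sharing in these ratios was not tested. The 5 pairs were compared with a two-sided exact permutation test over the 6 libraries, whose smallest possible p is 0.1, so no pair could reach 0.05. AKR1C2 took 6.85%, 12.5% and 9.42% of the counts of AKR1C1 and AKR1C2 with ApoD overexpression, against 23.2%, 20.1% and 19.1% in controls. The 95% Wilson interval of the highest ApoD overexpression library, 9.09% to 16.8%, ended below that of the lowest control library, 17.7% to 20.7%. These intervals cover counting error only. The mean log2 ratio of AKR1C2 to AKR1C1 was −3.26 ± 0.47 with ApoD overexpression and −1.93 ± 0.19 in controls (SD, n = 3 each), a difference of −1.33 (exact permutation p = 0.1, 0.25 adjusted over the 5 pairs).

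AKR1B10 made up 1.95%, 1.13% and 1.46% of the counts of AKR1B1 and AKR1B10 with ApoD overexpression, against 15.5%, 22.8% and 21.3% in controls. The difference in mean log2 ratio was −4.02, and the libraries of the groups did not overlap (exact permutation p = 0.1, 0.25 adjusted over the 5 pairs). AKR1C3 took 61.4%, 55.6% and 55.1% of the counts of AKR1C1 and AKR1C3 with ApoD overexpression and 58.7%, 53.6% and 49.8% in controls. Here the groups overlapped, with a difference in mean log2 ratio of 0.19 (exact permutation p = 0.4, 0.667 adjusted over the 5 pairs).

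AKR1B15 took 0%, 2.83% and 0.758% of the counts of AKR1B10 and AKR1B15 with ApoD overexpression and 0.739%, 0.538% and 1.06% in controls. The count of 0 among 169 allows a share of up to 1.78% by the rule of 3 counts, and its 95% Wilson interval ends at 2.22%. This ratio overlapped between the groups, with a difference in mean log2 ratio of 0.43 (exact permutation p = 0.7, 0.8 adjusted over the 5 pairs), which was −0.42 without ApoD overexpression replicate 2. The ratio of AKR7A3 to AKR7A2 also overlapped, with a difference of −0.28 (exact permutation p = 0.8, also 0.8 adjusted over the 5 pairs), or 0.21 without ApoD overexpression replicate 2.

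**Figure D4:**
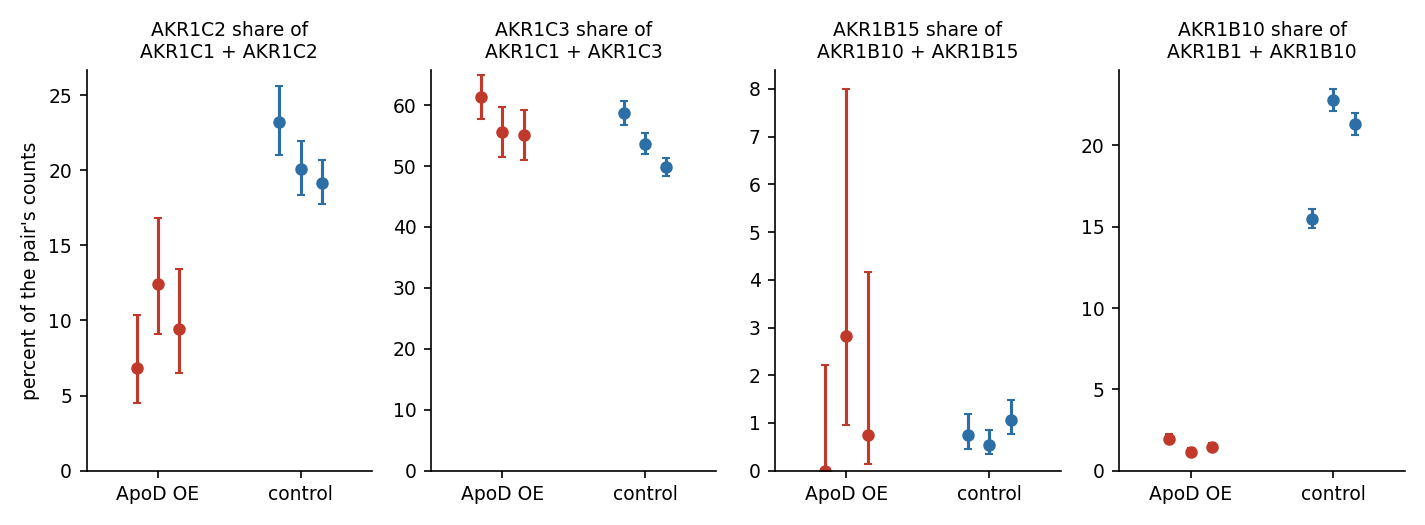
Percent of a pair's counts that came from its named member in each library, with ApoD overexpression (ApoD OE, red) left of control (blue) and 95% Wilson intervals for counting error. The shares of AKR1C2 and AKR1B10 are lower in all 3 ApoD overexpression libraries than in all 3 controls, and those of AKR1C3 and AKR1B15 overlap.

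The genes whose profile over the 6 libraries was most like that of a member were found from log2 CPM centred on each gene's mean, among 12653 tested genes with a mean of at least 1 CPM. Likeness was the mean absolute difference from the member, on the log2 scale. For AKR1B10 the closest were ALDH3A1 (0.138), ATP6V1B1 (0.195) and MMP12 (0.198). For AKR1C3 they were AQP3 (0.0649), CERS4 (0.0750) and APOBEC3G (0.0895), and for AKR1C1 SLC2A1-DT (0.135), NEURL1B (0.147) and AQP3 (0.151). For AKR1C2 they were LOC107986163 (0.243), TLE2 (0.244) and LGALS7 (0.259). AKR1C3 stood in position 5 among the genes closest to AKR1C1, at 0.169. AKR1C2 lay nearer to AKR1B10, at 0.438, than to its near copy AKR1C1, at 0.666. The log2 fold changes of the genes named here as closest ran from −4.18 (ATP6V1B1) to −2.15 (APOBEC3G). These values come from the same 6 libraries as the members' own and are a description only.

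The promoters of AKR1C1 and AKR1C2 are printed beside each other to show how alike the starts of these near copies are, together with that of AKR7A2, the member whose promoter held a match to the motif searched. The sequences are the 250 bases before the annotated start, from RefSeq on GRCh38.p14, for AKR1C1 at chr10:4963165-4963414 (plus strand), AKR1C2 at chr10:5003858-5004107 (minus strand) and AKR7A2 at chr1:19312147-19312396 (minus strand). Capitals in AKR7A2 mark matches to TGACNNNGC on either strand, the core of the antioxidant response element that NRF2 binds.
AKR1C1: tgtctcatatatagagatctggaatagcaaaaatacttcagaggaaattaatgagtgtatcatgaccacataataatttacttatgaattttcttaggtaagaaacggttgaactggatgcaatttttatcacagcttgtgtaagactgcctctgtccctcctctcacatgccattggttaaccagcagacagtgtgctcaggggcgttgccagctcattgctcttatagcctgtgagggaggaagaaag
AKR1C2: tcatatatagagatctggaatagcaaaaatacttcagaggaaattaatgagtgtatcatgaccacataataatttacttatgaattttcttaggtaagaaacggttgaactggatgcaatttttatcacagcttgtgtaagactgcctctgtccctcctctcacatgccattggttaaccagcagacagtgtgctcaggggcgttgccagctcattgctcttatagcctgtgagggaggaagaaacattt
AKR7A2: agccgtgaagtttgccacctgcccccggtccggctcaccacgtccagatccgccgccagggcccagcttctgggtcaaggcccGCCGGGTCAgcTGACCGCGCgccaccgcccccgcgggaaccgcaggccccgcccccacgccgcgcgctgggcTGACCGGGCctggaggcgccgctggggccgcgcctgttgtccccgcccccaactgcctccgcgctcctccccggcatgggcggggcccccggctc
The AKR1C1 and AKR1C2 promoters were the same at 245 of 254 aligned columns (96.5%, gaps at the ends counted as different), and AKR1C1 and AKR1C3 at 69.2% and 71.4% for the 2 annotated starts of AKR1C3. Promoters of 7 of the 9 members were searched, with 10 starts in all; AKR1B10 and AKR1B15 were not in the table. TGACNNNGC was found on either strand in 2 of the 10, both of AKR7A2 and overlapping each other, and in 10.9% of the 35116 promoters of the same length in the table. TGANTCA, the core of an AP-1 site, was found on either strand in 0 of the 10 and in 6.57% of all promoters. A match is a description of these letters in this window and not a site of binding. Bases outside the 250 were not searched, so a window without a match does not show that a gene lacks such an element.

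Gene lists around the members' reactions are given next, each with its count among the tested genes and its median log2 fold change. Over all tested genes the median was −0.02, with 24.6% called lower and 24.2% called higher, and a list's counts are to be read against these shares. Of the other members of the superfamily, 2 of 13 were tested: the potassium channel subunit KCNAB3 was higher with ApoD overexpression (1.53 ± 0.47 SE, edgeR adjusted p = 0.0175, n = 3 each) and KCNAB2 did not pass (−0.24, adjusted p = 0.0562), with a median of 0.64 over both. The call of KCNAB3 was lost without control replicate 3 (edgeR adjusted p = 0.0795), ApoD overexpression replicate 1 (0.0694) or ApoD overexpression replicate 3 (0.0550). Of 20 tested carbonyl-reducing enzymes of other families, 5 were lower and 2 higher with ApoD overexpression, with a median of −0.05, so the lower ones were about as frequent as among all tested genes. The lower ones included DHRS1 (−0.95 ± 0.13 SE) and PTGR1, which reduces the double bond of enals (−0.73 ± 0.11 SE), and the higher ones were SPR and CBR1.

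Around the polyol and fructose pathway of AKR1B1, in a list that also holds genes of methylglyoxal removal, 5 of 10 tested genes were lower. In the same list 3 were higher with ApoD overexpression, and the median was −0.24. SORD, which oxidises the sorbitol that AKR1B1 makes, was higher, at 165 ± 4.604 CPM with ApoD overexpression and 94.95 ± 8.41 CPM in controls (SD, n = 3 each; log2 fold change 0.80 ± 0.09 SE). The fructose transporter SLC2A5 was lower (−2.15 ± 0.40 SE), as was LDHD, a lactate dehydrogenase (−2.33 ± 0.41 SE). Of 10 tested retinoid genes around the retinaldehyde reduction of AKR1B10, 5 were lower and 1 higher, with a median of −0.81. DHRS3, another retinaldehyde reductase, had 14.0 ± 0.776 CPM with ApoD overexpression and 64.9 ± 5.88 CPM in controls (SD, n = 3 each; log2 fold change −2.22 ± 0.11 SE). RDH16 and RDH10, which oxidise retinol, were lower as well, with log2 fold changes of −1.90 ± 0.36 and −1.19 ± 0.14 (SE).

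Among steroid enzymes, the setting of the AKR1C genes, 7 of 17 tested genes were lower and 3 higher with ApoD overexpression, with a median of −0.37. HSD11B1, which makes cortisol from cortisone, had 29, 26 and 40 counts with ApoD overexpression and 0, 1 and 4 counts in controls. All its ApoD overexpression libraries were above the controls, with a log2 fold change of 4.26 ± 0.75 (SE, edgeR adjusted p = 0.000628, n = 3 each), or 5.77 without control replicate 3. The steroid sulfotransferase SULT2B1 was lower, with 6, 11 and 2 counts with ApoD overexpression and 73, 111 and 146 counts in controls (log2 fold change −3.96 ± 0.51 SE, or −4.68 without ApoD overexpression replicate 2). HSD17B3, which makes testosterone as AKR1C3 does, was lower too (−2.51 ± 0.51 SE).

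In prostaglandin synthesis and breakdown, the other setting of AKR1C3, 5 of 13 tested genes were lower and 4 higher with ApoD overexpression, with a median of −0.27. The prostacyclin synthase PTGIS had 0, 0 and 2 counts with ApoD overexpression and 16, 12 and 17 counts in controls. The cyclooxygenase PTGS1 was lower (−2.06 ± 0.14 SE). So was HPGD, at 4.33 ± 0.701 CPM with ApoD overexpression and 31.0 ± 8.60 CPM in controls (SD, n = 3 each; log2 fold change −2.84 ± 0.21 SE). The 4 higher ones were PTGER4, PTGES2, PTGES3 and PRXL2B.

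Of the NRF2 targets outside the aldo-keto reductases, 15 of 29 tested were lower and 2 higher with ApoD overexpression, with a median of −0.39. ALDH3A1, an aldehyde dehydrogenase, was lowest, at 4.62 ± 0.414 CPM with ApoD overexpression and 79.7 ± 16.7 CPM in controls (SD, n = 3 each; log2 fold change −4.11 ± 0.17 SE). The glutathione peroxidase GPX2 (−3.47 ± 0.15 SE) and the glucuronosyltransferase UGT1A6 (−2.64 ± 0.14 SE), whose first exon stands before exons common to the UGT1A genes, followed. The 2 higher targets were SRXN1 (0.85 ± 0.12 SE) and ABCC1 (0.26 ± 0.10 SE). Some other targets, picked here with their values known, did not pass: the log2 fold change was −0.06 for GCLC, 0.07 for TXNRD1, 0.03 for SLC7A11 and −0.01 for ME1. The list does not hold every known target. NQO1, a target counted here among the carbonyl-reducing enzymes, did not pass either (0.21 ± 0.11 SE, edgeR adjusted p = 0.132, n = 3 each).

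Of the 9 tested factors that control NRF2, 3 were higher and 2 lower with ApoD overexpression, with a median of 0.01. SQSTM1, which takes KEAP1 to autophagy, was higher (0.94 ± 0.12 SE), and so was KEAP1, which marks NRF2 for breakdown (0.62 ± 0.11 SE). BACH1, a repressor at the same sites, was lower (−0.66 ± 0.18 SE), a call lost with unfiltered limma on log2(FPKM + 1) (adjusted p = 0.0510). NFE2L2, which encodes NRF2 itself and was picked with its value known, had a log2 fold change of −0.17 ± 0.10 (SE, edgeR adjusted p = 0.184, n = 3 each). Of 9 tested genes of cytosolic NADPH supply, which feeds these reductases, 5 were lower and 1 higher with a median of −0.27, led by IDH1 (−0.65 ± 0.10 SE), and 5 of the 9 also stand among the NRF2 targets. Of 5 tested drug transporters, 3 of them also NRF2 targets, 3 were lower and 2 higher with a median of −0.85, led by ABCC2 (−0.99 ± 0.26 SE), whose call was lost with each library's abundance trend removed (edgeR adjusted p = 0.110). Tested against a change of 1.5-fold with glmTreat, the calls of KCNAB3, PTGR1, KEAP1, BACH1, IDH1 and ABCC2 were lost (edgeR adjusted p = 0.0985, 0.156, 0.601, 0.510, 0.420 and 0.130, in that order).

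**Figure D5:**
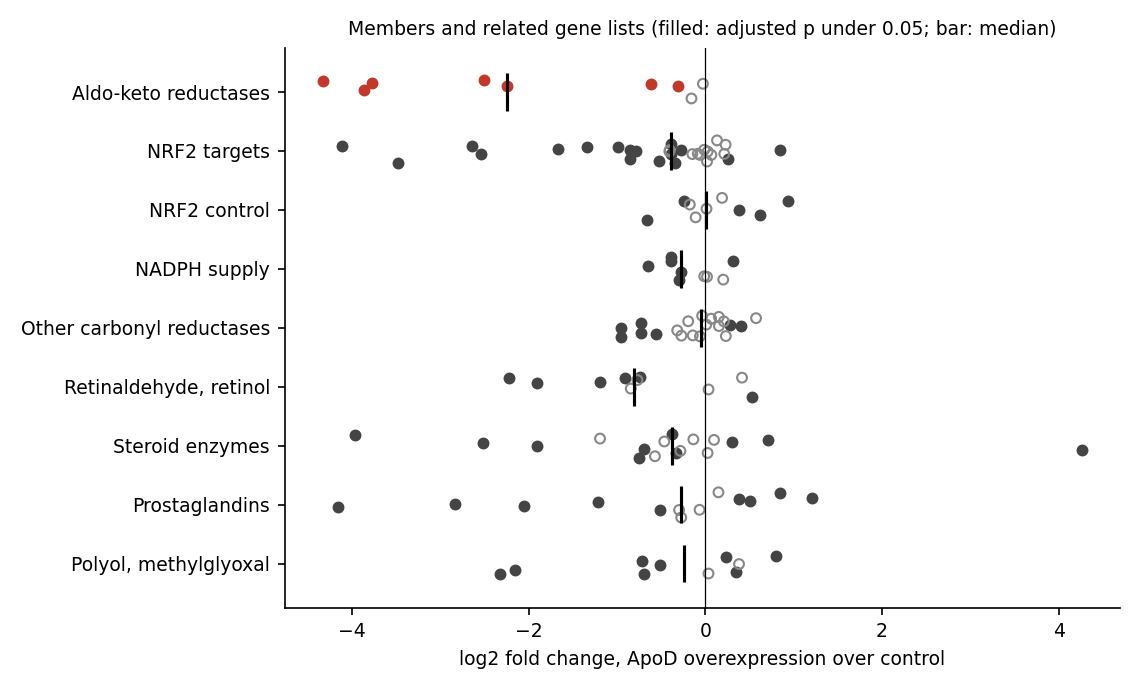
Log2 fold change, ApoD overexpression over control, of the 9 aldo-keto reductases (red where called) and of the tested genes of related lists, with a bar at each median. Filled points passed the test at an adjusted p of 0.05 and open points did not; the medians are −2.25 for the aldo-keto reductases and −0.81 to 0.01 for the other lists drawn.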

How the data were processed

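The authors deposited whole-number read counts per gene symbol, per the file headers, and the columns carry the sample names of the labels. The deposited FPKM table is a rescaling of it: each of 108650 values above 0 equalled the count over the column total and 1 gene length within a relative tolerance of 1e-06. Per the labels' protocols, RNA was extracted with an RNeasy kit and made into libraries with a SMARTER mRNA kit. Not given in the sources used here are the aligner, the counting program, whether it used strand, and the build.

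Counts were tested with the quasi-likelihood test of edgeR 4.0.16 (R 4.3.3), two-sided, with TMM scaling and filterByExpr at a minimum count of 10. Benjamini-Hochberg adjustment ran over all 14629 tested genes, with a threshold of 0.05. CPM are TMM-scaled. With 37542568 to 40416964 counts per library, counting error is small for members with high counts and large for AKR1B15 and AKR7A3. The same steps were first run on simulated data with known changes in a small part of the genes. These were about evenly up and down, with the same dispersion for every gene. In the measured data far more genes were called, so that run does not show how well the steps work here.

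Alternatives were DESeq2 1.42.0 (size factors, and its Wald test), scaling by library totals, removal of abundance trends, a replicate block, no filter on low counts, each library left out, glmTreat at 1.5-fold, and limma 3.58.1 on log2(FPKM + 1) or log2(FPKM + 0.1) with at least 1 FPKM in 3 libraries, the first also unfiltered. Added after seeing the data was a fit on genes whose mean count reached 500. Intervals and floors cover counting error only; a floor is 3 counts.

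The named genes were all 9 members, APOD, the 3 genes most like each of 4 members, and up to 3 genes past the threshold with the largest change in each list; the text gives a part of these. The members and lists were chosen with earlier results of these data known. Coding sequences came from GENCODE 29 and promoters from RefSeq.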

Additional observations from a re-analysis of the deposited data

How the results depend on the processing

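Of the 9 members, 7 were called lower with ApoD overexpression with DESeq2 size factors in edgeR, with the DESeq2 Wald test, with library totals, with the abundance trend removed, without the low-count filter and with unfiltered limma on log2(FPKM + 1). With glmTreat 5 were, as were 1430 of all 14629 genes tested. Of the 6 members whose mean count reached 500, 5 were called lower in the fit on such genes, and of the 7 that passed the FPKM filter 6 were called lower with either pseudocount. AKR1B10, AKR1C1 and AKR1C3 reached that mean only through the control libraries, with 103 to 432 counts with ApoD overexpression. In the same way AKR1C2 passed the FPKM filter and AKR1B15 the low-count filter of the main fit. Their calls after these filters are thus no separate support. Leaving out 1 library gave 6 or 7. No member was called higher in any of these fits, including each fit that left out 1 library. With library totals the median over all tested genes was −0.13, against −0.02 with TMM (log2 fold change), and AKR1B10 and the AKR1C genes lay far below either.

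Over all tested genes, glmTreat called 545 higher and 1430 lower of 14629. The fit on genes whose mean count reached 500 called 2394 higher and 2367 lower of 9040. Unfiltered limma on log2(FPKM + 1) called 2317 higher and 3948 lower of 21676, and library totals gave 2580 higher and 4435 lower of 14629. DESeq2 size factors gave 3539 higher and 3617 lower, and removal of the abundance trend 3267 higher and 3390 lower, each of 14629. The DESeq2 Wald test gave 3622 higher and 3693 lower of 14627. Without the low-count filter 3651 were higher and 3696 lower of 21676. Leaving out 1 library gave 2690 to 3712 higher and 2764 to 3807 lower. The sign of 2 members that did not pass turned. With 1 library left out AKR7A2 ran from −0.16 to 0.058 and AKR7A3 from −0.75 to 0.14. AKR7A2 was at 0.013 without control replicate 2, 0.058 without ApoD overexpression replicate 1 and 0.052 without ApoD overexpression replicate 3, and AKR7A3 was at 0.48 with the abundance trend removed and 0.14 without ApoD overexpression replicate 2. The difference in log2 ratio of AKR1B15 to AKR1B10 was −0.42 to 1.34 with 1 library left out, and that of AKR7A3 to AKR7A2 −0.79 to 0.21. For AKR1B15, limma on log2(FPKM + 1) gave −0.21, since the pseudocount exceeds its level. For AKR1C1 and AKR1C2 the alternatives ran from −2.73 to −1.79 and from −4.06 to −1.56, and for AKR1B10 and AKR1C3 from −4.47 to −3.66 and from −2.37 to −2.08. The causes were not tested.

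Same-numbered libraries did not deviate together (correlations −0.18, −0.03 and −0.10), so the numbers were not taken as pairs. With the replicate block, 3088 genes were called higher and 3260 lower, and 7 members were called lower, AKR1B1 with an edgeR adjusted p of 0.0490. Depth limits AKR1B15 and AKR7A3, with at most 34 counts in any library.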
